A study of Mus musculus with 2 samples.

Results

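The VE-cadherin-positive cells of the mouse yolk sac at E11.5 (embryonic day of gestation) were taken from a nanowell chip as the wells recorded under that tissue and gate. Of 388 such wells, 357 had counts for 500 or more genes and were kept, of 2644 kept wells in the 8 sorted pools of the series. The cells came from wild-type C57Bl/6 embryos, were sorted alive as single VE-cadherin-positive cells, and were dispensed on an ICELL8 chip, on which imaged wells with a single live cell were processed. The pool is set against the E11.5 positive pool of the aorta-gonad-mesonephros region (AGM, 287 wells), the E11.5 negative pools of yolk sac (379 wells) and AGM (338 wells), the E9.5 yolk sac positive pool (325 wells) and, for red cell wells, the E9.5 AGM negative pool (354 wells), all of wild-type embryos. Each pool is a single sorted suspension with an embryo number not given in the sources used here, and the E9.5 cells were on another chip, so stage and chip cannot be told apart. A pool is thus 1 sample, differences between sets of wells carry no test, and the intervals given (95%, exact) cover counting error only.

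The yolk sac is the first site of blood formation in the mouse. Its outer layer is visceral endoderm, an epithelium that absorbs nutrients and secretes apolipoproteins, alpha-fetoprotein and transthyretin, as the liver does later. Beneath it lie mesenchyme and a vascular plexus whose endothelium carries the scavenger receptors Stab2 and Lyve1, both of which bind hyaluronan, and which encloses nucleated primitive red cells and yolk sac macrophages. VE-cadherin, encoded by Cdh5, is the adhesion protein of endothelial junctions and was the antigen of the sort.

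The gate enriched Cdh5 mRNA, but most wells of the pool were not marked as endothelium. Cdh5 was counted in 159 of 357 wells (44.5%, 39.3 to 49.9), against 18 of 379 wells (4.75%) in the yolk sac negative pool. A well was given a class when it held at least 3 markers of 1 fixed list. For lists other than the endothelial, the share of counts outside haemoglobin also had to be at least 2 times that of the whole pool. By this rule 112 wells were endothelial-like (31.4%, 26.6 to 36.5), 55 red cell-like (15.4%, 11.8 to 19.6), 30 macrophage-like (8.40%, 5.74 to 11.8), 14 mesenchyme-like (3.92%) and 8 visceral endoderm-like (2.24%, 0.972 to 4.37). A further 46 wells met the rule for more than 1 list (12.9%), most often endothelial with red cell markers (12 wells), red cell with mesenchyme markers (9 wells) and endothelial with visceral endoderm markers (7 wells), and 92 wells met none (25.8%). No doublet caller was run. In each other pool the share was set against that pool's own, so classes of different pools were cut at different thresholds. The AGM positive pool had 99 endothelial (34.5%), 43 red cell (15.0%) and 24 macrophage wells (8.36%), while the E9.5 yolk sac positive pool had 245 endothelial wells of 325 (75.4%, 70.3 to 80.0), 6 red cell wells and 1 macrophage well. Median depth was 3008 counts and 762 genes in the E11.5 yolk sac positive pool, against 3961 counts and 1504 genes in that of E9.5. After thinning each well to 1000 counts outside haemoglobin, 3 or more endothelial markers were counted in 71 of 353 wells of the E11.5 yolk sac positive pool (20.1%, 16.1 to 24.7), against 87 of 280 of the AGM positive pool (31.1%, 25.7 to 36.9) and 128 of 325 of the E9.5 yolk sac positive pool (39.4%, 34.0 to 44.9). Before thinning these shares were 39.5%, 46.7% and 88.6%.

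**Figure D1:**
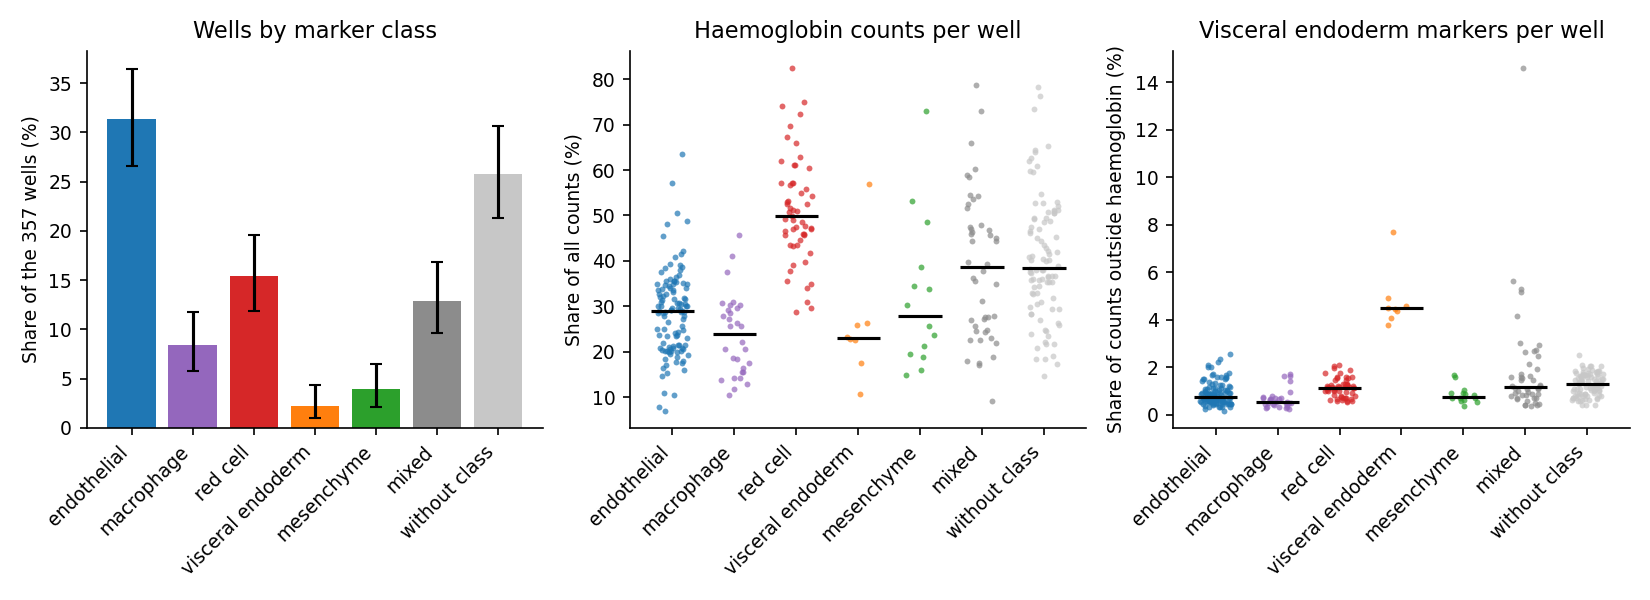
Left, share of the 357 wells in each marker class (bars; error bars, exact 95% binomial interval); middle, haemoglobin share of all counts in each well (points; line, median); right, share of counts outside haemoglobin genes taken by visceral endoderm markers in each well. Endothelial wells are the largest class at 31.4%, red cell wells have the highest median haemoglobin share at 49.8%, and visceral endoderm wells stand above most others, with a single mixed well at 14.6%.

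Wells were shallow. They held 1210 to 12108 counts (median 3008) and 503 to 2947 genes (median 762), and haemoglobin genes, present in all 357 wells, took a median of 34.4% of the counts (7.06 to 82.5%). All levels below are therefore counts per 1000000 (CPM) outside haemoglobin genes. Median counts outside haemoglobin were 2040.5 in endothelial, 2701.5 in macrophage, 1414 in red cell, 3268 in visceral endoderm and 2190.5 in mesenchyme wells. Visceral endoderm RNA was counted in every well. Afp was counted in all 357 wells, with at least 2 counts in each, 355 wells held 3 or more visceral endoderm markers, and the 47 wells without a cell on the same chip held 31 Afp counts, 7 Hsd3b6 counts and 3 Stab2 counts among 17289 counts in all. A count of such a gene in a well is thus not read as expression by its cell, and shares of wells are set beside those of classes that should lack the gene. The 28 wells at most 50 genes above the limit of 500 had a median of 2126.5 counts, and the 17 wells at most 50 genes below it one of 2088 counts.

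The promoters of 4 genes that mark different wells are shown because they carry the contrast on which the results turn: Stab2 for endothelium, Hsd3b6 and Alas2 for red cells, Pf4 for macrophages. Sequences are from RefSeq (GRCm38.p6), run 5' to 3' on the gene's strand from 250 bases before to 50 after the annotated start, and capitals mark matches on either strand to AGATAA or TGATAA for GATA factors, AGGAAG for ETS factors and CCACACCC for KLF factors.
Stab2 (chr10:87007893-87008192, - strand): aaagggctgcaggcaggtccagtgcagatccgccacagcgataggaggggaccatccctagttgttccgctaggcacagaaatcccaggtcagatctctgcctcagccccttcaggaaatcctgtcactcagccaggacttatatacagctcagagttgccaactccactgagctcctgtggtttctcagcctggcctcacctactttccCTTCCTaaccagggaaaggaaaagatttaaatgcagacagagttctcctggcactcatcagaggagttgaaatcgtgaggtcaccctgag
Hsd3b6 (chr3:98814394-98814693, - strand): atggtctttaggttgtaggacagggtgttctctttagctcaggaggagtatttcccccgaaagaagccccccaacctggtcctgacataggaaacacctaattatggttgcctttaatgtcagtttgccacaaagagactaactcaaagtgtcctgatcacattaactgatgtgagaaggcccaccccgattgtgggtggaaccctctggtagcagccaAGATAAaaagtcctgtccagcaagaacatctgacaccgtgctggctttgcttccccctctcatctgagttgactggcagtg
Alas2 (chrX:150547167-150547466, + strand): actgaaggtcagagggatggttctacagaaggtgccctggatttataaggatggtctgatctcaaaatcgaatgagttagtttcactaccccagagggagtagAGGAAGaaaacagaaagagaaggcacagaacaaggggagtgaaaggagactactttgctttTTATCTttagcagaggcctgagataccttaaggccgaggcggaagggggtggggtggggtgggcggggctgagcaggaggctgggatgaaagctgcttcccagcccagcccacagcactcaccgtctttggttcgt
Pf4 (chr5:90772185-90772484, + strand): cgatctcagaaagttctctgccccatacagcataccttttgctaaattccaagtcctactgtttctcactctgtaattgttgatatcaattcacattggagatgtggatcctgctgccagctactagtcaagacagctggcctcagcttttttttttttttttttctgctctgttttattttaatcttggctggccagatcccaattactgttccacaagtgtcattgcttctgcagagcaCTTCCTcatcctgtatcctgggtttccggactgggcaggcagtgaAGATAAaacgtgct
A GATA match was present in the Hsd3b6, Alas2 and Pf4 windows and not in that of Stab2, and an ETS match in those of Stab2, Alas2 and Pf4 and not in that of Hsd3b6. None of the 4 held the KLF letters. The window of the visceral endoderm gene Apoa1, not printed here, also held a GATA match and no ETS match, as that of Hsd3b6 did. Of 32851 mouse promoter windows of that length, 18.6% held a GATA match, 35.4% an ETS match and 3.56% a KLF match, and no motif overlapped another here, so the matches are a description of these letters and not of bound sites.

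Endothelial wells carried the scavenger receptors. Stab2 (stabilin 2, chr10:86841198-87008025, minus strand, GRCm38), the receptor that clears hyaluronan and other macromolecules, had 674 counts in the 112 endothelial wells, with a lowest, median and highest well of 0, 5 and 31 counts. That is 2393 CPM (2215 to 2580), against 436 CPM in macrophage, 602 in red cell, 298 in mesenchyme and 113 in visceral endoderm wells. It was counted in 93 of 112 endothelial wells (83.0%), against 19 of 30 macrophage wells (63.3%) and 28 of 55 red cell wells (50.9%). With every well thinned to 1000 counts, these shares became 71.2%, 34.5% and 40.7%. The level in endothelial wells thus lay above every other class, with no overlap of the counting intervals. The wells without a cell had 228 CPM on 3 counts (46.9 to 665). That interval holds the values of the other classes named here, so those are not read as expression.

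Lyve1, the hyaluronan receptor of lymphatic and yolk sac endothelium (chr7:110850607-110863239, minus strand), followed Stab2 less closely. It had 238 counts in endothelial wells (lowest 0, median 1, highest 26 in a well), or 845 CPM (741 to 959). Macrophage wells had 499 CPM (368 to 661), red cell wells 278 CPM and visceral endoderm wells 113 CPM. The macrophage level lay between the endothelial and the red cell level, though its interval reached into that of red cell wells (178 to 413). The wells without a cell had 152 CPM of Lyve1 on 2 counts (18.4 to 548). That interval holds the macrophage, red cell and visceral endoderm values, so those are not read as expression. Cdh5 itself (chr8:104101625-104144511, plus strand), a marker used to choose the endothelial wells, had 731 CPM there and 37.8 to 277 CPM in the other sets of wells.

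Other receptors of scavenger endothelium were higher in the same wells. Of 13 measured genes of the scavenger and lymphatic-type list, 7 were at least 2-fold higher in endothelial wells than in the other wells of the pool and 1 was at least 2-fold lower, where 12.9% of all 5118 measured genes were 2-fold higher and 9.03% lower. The list's median log2 ratio was 1.41, against 0.11 over all genes. A gene was measured when it had at least 20 counts over both sets and at least 5 expected in the smaller. Gpr182, a scavenging receptor for chemokines, had 177 CPM in endothelial wells, against 41.3 CPM in the other wells (log2 ratio 2.10, 1.34 to 2.91). Ehd3, a protein of endosome recycling, had 266 against 65.0 CPM (2.03, 1.43 to 2.67). Colec12, a scavenger receptor with a collectin domain, had 415 against 146 CPM (1.51, 1.08 to 1.95), and Cd36, the fatty acid and lipoprotein receptor, 156 against 55.1 CPM (interval of the log2 ratio 0.79 to 2.24). The gene lower by 2-fold was Msr1, a scavenger receptor of macrophages, with 14.2 against 37.4 CPM, an interval that reached 0 (-3.41 to 0.19). Stab1, the paralog of Stab2, had 387 CPM in endothelial wells and 313 CPM in the others (0.31, -0.06 to 0.67), and Maf 476 against 439 CPM.

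**Figure D2:**
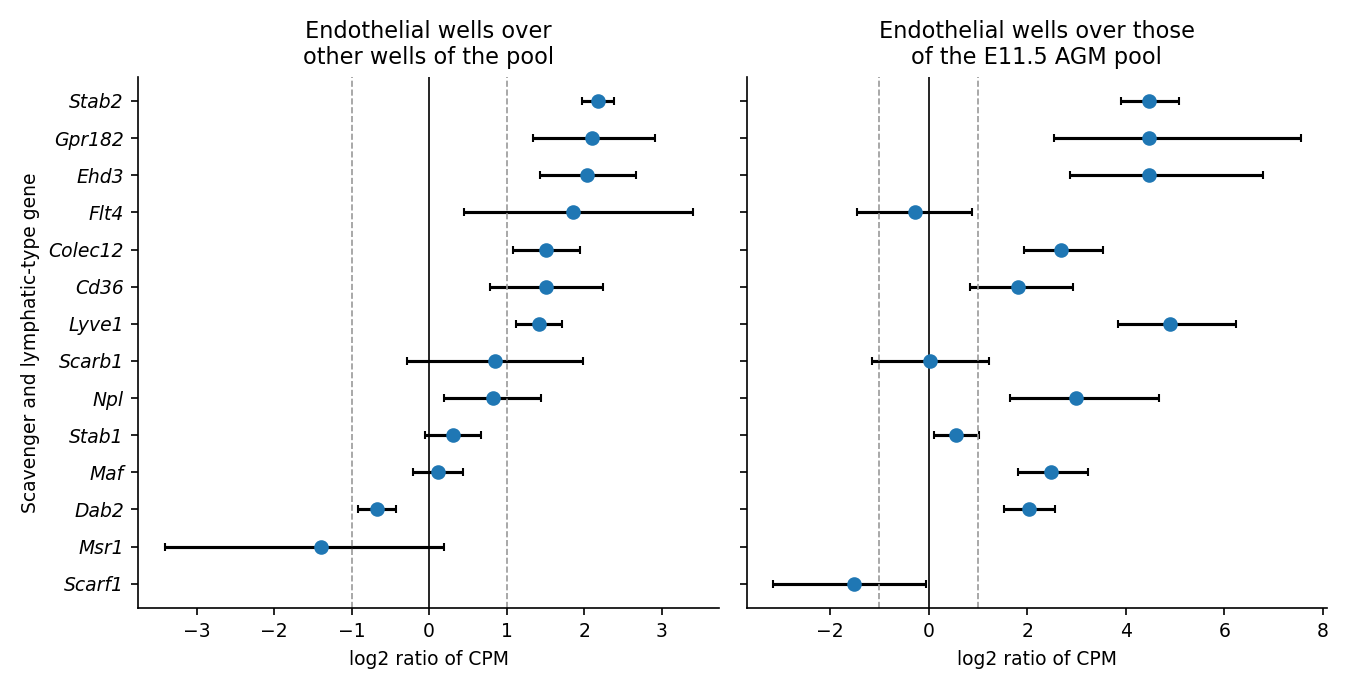
log2 ratio of CPM for measured genes of the scavenger and lymphatic-type list (points; bars, exact 95% interval), in endothelial wells over the other wells of the pool (left) and over endothelial wells of the E11.5 AGM positive pool (right); dashed lines mark 2-fold. Stab2, Lyve1, Gpr182, Ehd3, Colec12 and Cd36 lie above 2-fold in both, Dab2, Maf and Npl only over AGM endothelium, and Flt4 only over the other wells of the pool.

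Outside the class markers, Aplnr, the apelin receptor of venous and sprouting endothelium, had the highest ratio in endothelial wells, 156 against 15.7 CPM (log2 3.31, 2.21 to 4.61), with counts in 31 of 112 wells. Plcb4, a phospholipase C, had 146 against 17.7 CPM (3.04), and Epas1, the hypoxia-inducible factor of endothelium, 209 against 27.6 CPM (2.93). The matrix and cell-shape genes Adamts5 (2.57), Col13a1 (2.41), Lama3 (2.36) and Srgap1 (2.30) were also among the 20 leading genes by log2 ratio. Markers of both vessel types were present. All 5 measured venous genes (Tek, which had also chosen the wells, Flt4, Nrp2, Ephb4 and Aplnr) and 4 of 6 measured arterial genes (Efnb2, Notch4, Sox17 and Notch1) were at least 2-fold higher. Over all 5118 measured genes the share 2-fold higher was 12.9%. Efnb2, the arterial ephrin, had 160 against 31.5 CPM, and Nrp2, the venous and lymphatic neuropilin, 227 against 65.0 CPM. Neither set was seen to exclude the other, as both were summed over the 112 wells. The stem cell and haemogenic endothelium factor Mecom had 319 against 120 CPM (1.41), while Runx1, the factor that starts blood formation from endothelium, had 46.1 against 90.6 CPM (-0.97) and was counted in 8 of 112 wells.

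Within the endothelial class, 93 wells had a Stab2 count and 19 had none. Median depth outside haemoglobin was 2070 counts in wells with Stab2 and 1924 in wells without. Of 9 measured genes of the scavenger list other than Stab2, 7 were at least 2-fold higher in wells with Stab2, against 21.7% of 1203 measured genes higher and 3.16% lower, and general endothelial markers moved with them, 6 of 10 being at least 2-fold higher. Lyve1 had 963 CPM in wells with Stab2 and 256 CPM in wells without (1.91, 1.08 to 2.89). Flt1 had 818 against 213 CPM (1.94) and Tshz2, a zinc finger factor, 626 against 85.2 CPM (2.88, 1.49 to 4.77). Runx1 had 6 counts in the 93 wells with Stab2 and 7 counts in the 19 wells without, or 25.6 against 149 CPM (-2.54, -4.39 to -0.75), too few to be among the measured genes. The other leading genes, such as Adam10 and Nav1 with 50 counts against 1 each, rested on a single count in the 19 wells (3.32, 0.78 to 8.65 for each). When the split and the counts were both taken after thinning to 1000 counts, 79 wells had Stab2 and 32 had none, 2 of 6 measured genes of the list were at least 2-fold higher (Lyve1 at 1.15 and Stab1 at 1.43), and the share over 625 genes was 14.6%.

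Macrophage wells were led by a platelet chemokine gene. Pf4, platelet factor 4, which mouse macrophages and megakaryocytes express, had 183 counts in the 30 macrophage wells (lowest 0, median 2.5, highest 29 in a well). This gave 1902 CPM (1636 to 2198), against 154 CPM in the other wells of the pool (log2 3.62, 3.27 to 3.98), and 24 of 30 wells had a count. In endothelial and red cell wells the level was 142 and 116 CPM. Both lie within the interval of the wells without a cell (82.7 to 777 CPM on 4 counts), so they are not read as expression. The endothelial counts were uneven, with 39 in the 93 wells with Stab2 and 1 in the 19 wells without (log2 2.96, 0.40 to 8.30). Their source was not tested. Pf4 was the only measured gene of the megakaryocyte list, so that list gives no other value here. The single well with most Pf4 held 15.8% of the class's counts, and with equal weight per well the ratio was 3.09.

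Several immune genes were among the other leaders. Lst1, a leukocyte transcript, had 395 against 37.5 CPM (3.40), Fyb, an adaptor of immune cells, 333 against 46.1 CPM (2.85), and Tmsb4x, the actin-binding thymosin beta 4, 6058 against 1468 CPM (2.04). Slc9a9, a sodium and proton exchanger of endosomes, had 478 against 82.2 CPM (2.54). Dab2, an endocytic adaptor, had 2722 against 653 CPM (2.06). Among lists, 3 of 3 measured complement and Fc receptor genes (C1qb, Fcer1g and Fcgr3) were at least 2-fold higher, where 8.27% of 2576 genes were higher by 2-fold and 22.6% lower. C1qb and Fcer1g had also chosen the wells. Of 10 measured lysosome genes, 3 were at least 2-fold higher (Psap, Ctsb and Grn), with a median of 0.60 over the list against -0.11 over all genes. Grn, the lysosomal glycoprotein progranulin, had 291 against 85.1 CPM (1.77, 1.07 to 2.45).

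Of 10 measured genes of the scavenger list, 3 were at least 2-fold higher in macrophage wells and 3 lower, where 8.27% of all genes were higher and 22.6% lower, so the lower share lies near that of all genes. Dab2, Stab1 (634 against 299 CPM, 1.09) and Maf, a macrophage and endothelial transcription factor (956 against 382 CPM, 1.32), were at least 2-fold higher. Stab2, Gpr182 and Ehd3 were at least 2-fold lower, and Ehd3 had 0 counts in the 30 macrophage wells, which allows up to 31.2 CPM, against 156 CPM in the others. Lyve1 had 499 against 506 CPM (-0.02, -0.49 to 0.42). Runx1, which is also active in macrophages, had 260 CPM (168 to 383) in macrophage wells, against 49.0 CPM in the others (2.41, 1.60 to 3.19), so 25 of the pool's 59 Runx1 counts were in 30 of its 357 wells. Of 9 measured imprinted growth genes, 7 were at least 2-fold lower. Stress genes moved the other way, with Jun, Hspa1a and Hspa1b all at least 2-fold higher of 3 measured. Hspa1a had counts in 12 of the 30 wells. The part of handling in the class's profile was not tested. The 24 macrophage wells of the AGM positive pool had less Pf4 (930 CPM, 722 to 1179) than those of the yolk sac. They had 82.1 CPM of Stab2 (30.1 to 179), also below the yolk sac value. Both Stab2 values lie within the interval of the wells without a cell (46.9 to 665), so neither is read as expression. Runx1 and Lyve1 were at 424 CPM each (288 to 602), intervals that overlap with the yolk sac values. The Lyve1 values of both sets of macrophage wells lie within the interval of the wells without a cell (18.4 to 548).

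Red cell wells held the highest level of a steroid enzyme mRNA that had been taken, with Cdh5, Stab2 and Lyve1, as a marker of the pool. Hsd3b6 (chr3:98805504-98814443, minus strand) encodes a 3-beta-hydroxysteroid dehydrogenase of steroid hormone synthesis. It had 205 counts in the 55 red cell wells (lowest 0, median 2, highest 20 in a well), or 2372 CPM (2058 to 2719). The level was 344 CPM (279 to 420) in endothelial, 426 in macrophage, 378 in visceral endoderm, 806 in mesenchyme and 871 in unclassed wells. Red cell wells thus lay above all other classes without overlap of the intervals, while endothelial wells had the lowest value, with an interval that overlaps those of macrophage and visceral endoderm wells. The log2 ratio of red cell wells to the other wells was 2.06 (1.81 to 2.30), and a count was seen in 45 of 55 red cell wells (81.8%), against 61 of 112 endothelial wells (54.5%). After thinning these shares were 68.5% and 27.0%. The wells without a cell held 7 Hsd3b6 counts, or 531 CPM (214 to 1094). That interval holds the endothelial, macrophage, visceral endoderm, mesenchyme and unclassed values, so none of these is read as expression. The wells without a cell had a median of 329 counts and at most 1 Hsd3b6 count each, so only levels are compared. With haemoglobin in the total, which takes a larger part of red cell wells, the ratio was 1.49.

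The longest Hsd3b6 transcript (1802 bases) aligned to those of its neighbours Hsd3b3 and Hsd3b2 at 93.9% and 92.6% identity, over 1491 and 1671 bases. Hsd3b2 had 2 counts and Hsd3b1 5 counts in the whole pool, against 606 for Hsd3b6, and Hsd3b3 was not analysed here. How the counting shared reads between these copies is not given in the sources used here, so the counts are uncertain as to which copy they came from.

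**Figure D3:**
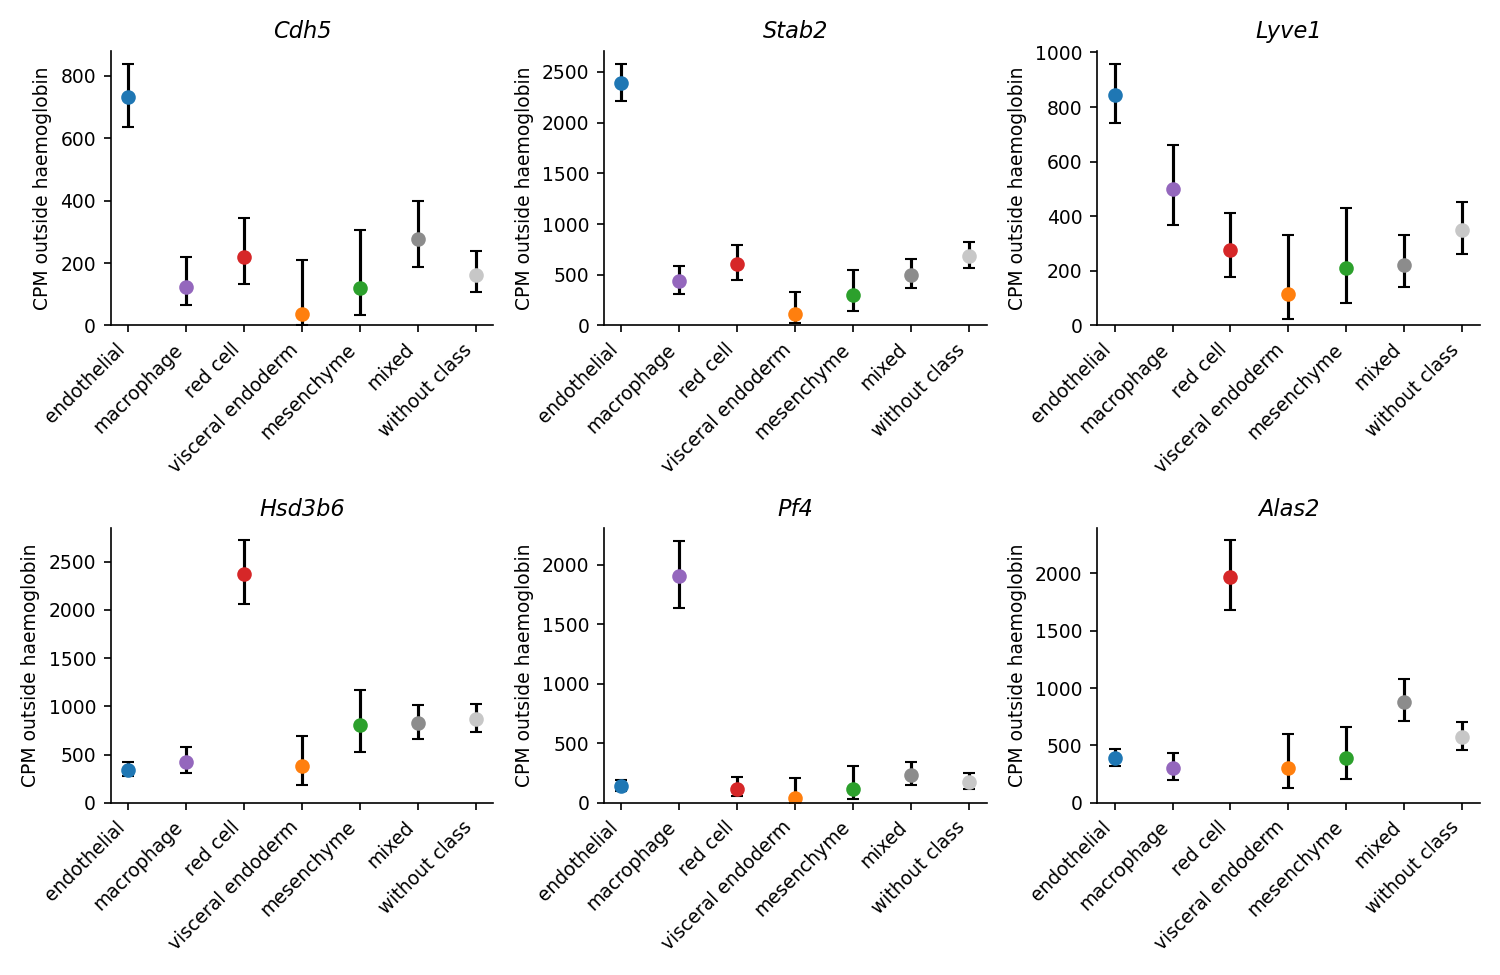
Level of 6 genes in each set of wells, in CPM outside haemoglobin genes (points; bars, exact 95% Poisson interval of the summed counts). Cdh5, Stab2 and Lyve1 are highest in endothelial wells, Pf4 in macrophage wells, and Hsd3b6 and Alas2 in red cell wells, at 2372 and 1967 CPM.

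Haem synthesis genes were higher with it. Of 10 measured genes of haem synthesis and iron handling, 9 were at least 2-fold higher in red cell wells (median 1.53, against -0.16 over all genes and 7.13% of 2343 genes higher). Among these, Alas2 and Slc25a37 had chosen the wells. Tfrc, the transferrin receptor, had 301 against 91.0 CPM (1.72), Fech, which inserts iron into haem, 486 against 175 CPM (1.47), and Fth1, the ferritin heavy chain, 6964 against 3165 CPM (1.14). The erythroid factor Tal1 had 174 against 71.1 CPM (1.29). Kel, the Kell blood group protein of the cell surface, had 752 against 172 CPM (2.13). The membrane skeleton genes Sptb (spectrin beta, 1.94) and Ank1 (ankyrin 1, 1.89) were also among the leaders by ratio. Bpgm, which makes the 2,3-bisphosphoglycerate that tunes oxygen release, had 1481 against 429 CPM (1.79).

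Several leaders are not textbook red cell genes. Slc25a21, a mitochondrial carrier of oxodicarboxylates, had the highest ratio, 706 against 127 CPM (2.48, 1.98 to 2.97), in 30 of 55 wells. Pkhd1l1, a large protein related to fibrocystin, had 555 against 118 CPM (2.23), and Reln, the secreted protein reelin, 706 against 173 CPM (2.02). St6galnac3, a sialyltransferase, had 3309 against 1042 CPM (1.67) and was counted in 54 of 55 wells. Endothelial wells had 56.8 CPM of Pkhd1l1 and 49.7 CPM of Reln. The wells without a cell had 228 CPM of Pkhd1l1 on 3 counts (46.9 to 665). For Reln they had 304 CPM on 4 counts (82.7 to 777). Those intervals hold the red cell values of both genes, so these are not read as expression.

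The makeup of haemoglobin mRNA was alike in most classes. Embryonic beta globin Hbb-y made up 45.8% of haemoglobin counts in red cell wells, 44.9% in endothelial, 45.9% in macrophage and 43.0% in visceral endoderm wells. Embryonic alpha globin Hba-x ran from 9.03% in visceral endoderm wells to 11.9% in endothelial wells. Hba-a1 made up 29.6% (28.8 to 30.4) in visceral endoderm wells and 23.1 to 24.8% in the other sets of wells. The visceral endoderm value rests largely on 1 well, which held 58.9% of the class's Hba-a1 counts. For Hbb-y the top well held 49.5% and for Hba-x 32.5%, so the values of these 8 wells are not read as a trait of the class. In the wells without a cell Hbb-y made up 58.5%. Median haemoglobin shares were 49.8% of counts in red cell wells and 29.1% in endothelial wells. All 8 measured globin genes were at least 2-fold higher per count outside haemoglobin in red cell wells. Hba-a1 and Hba-a2, and Hbb-b1 and Hbb-b2, are near-identical copies whose reads may be split arbitrarily, so their separate values are uncertain.

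In other pools of the same chip, red cell wells also had a higher Hsd3b6 value than the other wells. Red cell wells had 1356 CPM (1177 to 1556, 71 wells) in the yolk sac negative pool, against 441 CPM in its other wells, and 647 CPM (464 to 877, 43 wells) in the AGM positive pool, against 272 CPM in its other wells. The 8 red cell wells of the AGM negative pool had 147 CPM on 4 counts, against 50.6 CPM in its other wells. Red cell wells of both yolk sac pools, each cut at its pool's own threshold, thus lay above those of both AGM pools. Among the values of these other pools, only that of the yolk sac negative red cell wells exceeded the interval of the wells without a cell (214 to 1094 CPM). The AGM values are therefore not read as expression. The E9.5 chip had little Hsd3b6, with 15.8 CPM in the whole yolk sac positive pool, 0 counts in its 6 red cell wells (which allows up to 214 CPM), and 12.6 CPM in the 35 red cell wells of the E9.5 AGM negative pool. Pkhd1l1 had 293 CPM in the red cell wells of the yolk sac negative pool, against 99.6 CPM in its other wells, and 300 CPM in those of the AGM positive pool, against 107 CPM in the others. All of these Pkhd1l1 values lie within the interval of the wells without a cell (46.9 to 665), so they are not read as expression.

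**Figure D4:**
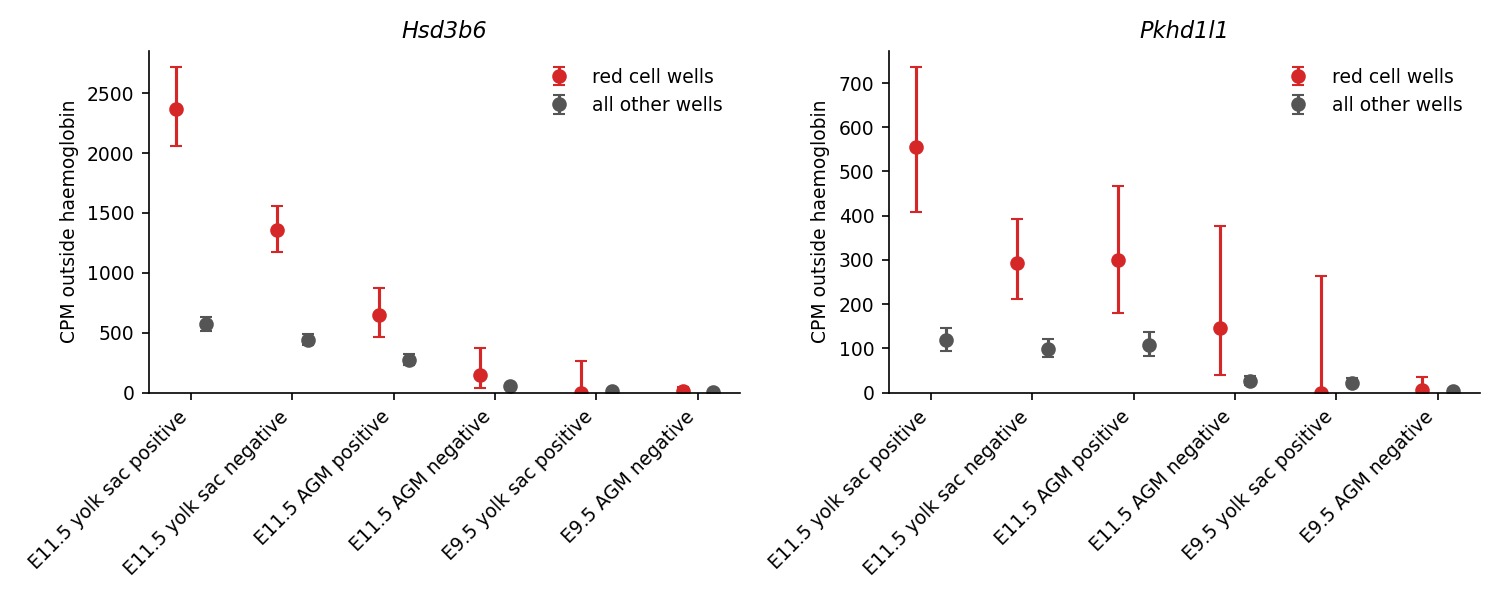
Level of Hsd3b6 (left) and Pkhd1l1 (right) in red cell wells (red) and all other wells (grey) of 6 pools, in CPM outside haemoglobin genes (points; bars, exact 95% Poisson interval). In the first 3 pools, all of E11.5, red cell wells lie above the other wells for both genes; the highest values are those of the yolk sac positive pool, and Hsd3b6 is near 0 in the other wells of both E9.5 pools.

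The 8 visceral endoderm wells stood above a background that all wells shared. Mitochondrial genes took a median of 12.2% of their counts, against 4.6 to 6.98% in the other sets of wells, and the part of RNA quality in their profile was not tested. Their markers took 3.79 to 7.68% of counts outside haemoglobin, against 0.170 to 2.54% in endothelial wells, and 1 mixed well reached 14.6%. Afp, the fetal serum protein, had 46 to 171 counts in these wells (median 74.5), or 27356 CPM, against 2 to 39 counts (median 9), or 3766 CPM, in endothelial wells. A single mixed well held 597 Afp counts, 11.6% of those of the pool. Outside the marker list, Fgb, the fibrinogen beta chain, had 1625 against 242 CPM (2.74, 2.23 to 3.23). Lrpap1, the chaperone of lipoprotein receptors, had 1209 against 149 CPM (3.02, with too few expected counts to be among the measured genes), Ctsl, a lysosomal protease, 2154 against 448 CPM (2.26), and the metallothionein Mt2 3816 against 957 CPM (2.00). All 6 measured lipid transport genes were at least 2-fold higher (background 7.64% of 458 genes), of which only Apoe (1.01) had not helped to choose the wells. Cdh5, Stab2 and Lyve1 had at most 1 count in any of the 8 wells, and Runx1 had 0 counts, which allows up to 113 CPM.

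The 14 mesenchyme wells carried type I and III collagen, which had chosen them. Of genes outside the list, Myh10, a non-muscle myosin, had 1372 against 132 CPM (3.38), Meg3, an imprinted non-coding RNA, 1731 against 299 CPM (2.53), and Fn1, fibronectin, 1223 against 329 CPM (1.89). Nf2 had the highest ratio (5.08), but 94.9% of its 39 counts were in 1 well. Of 7 measured imprinted growth genes, 2 were at least 2-fold higher, Meg3 and Igf2r (background 6.41%). No well met the rule for smooth muscle alone.

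**Figure D5:**
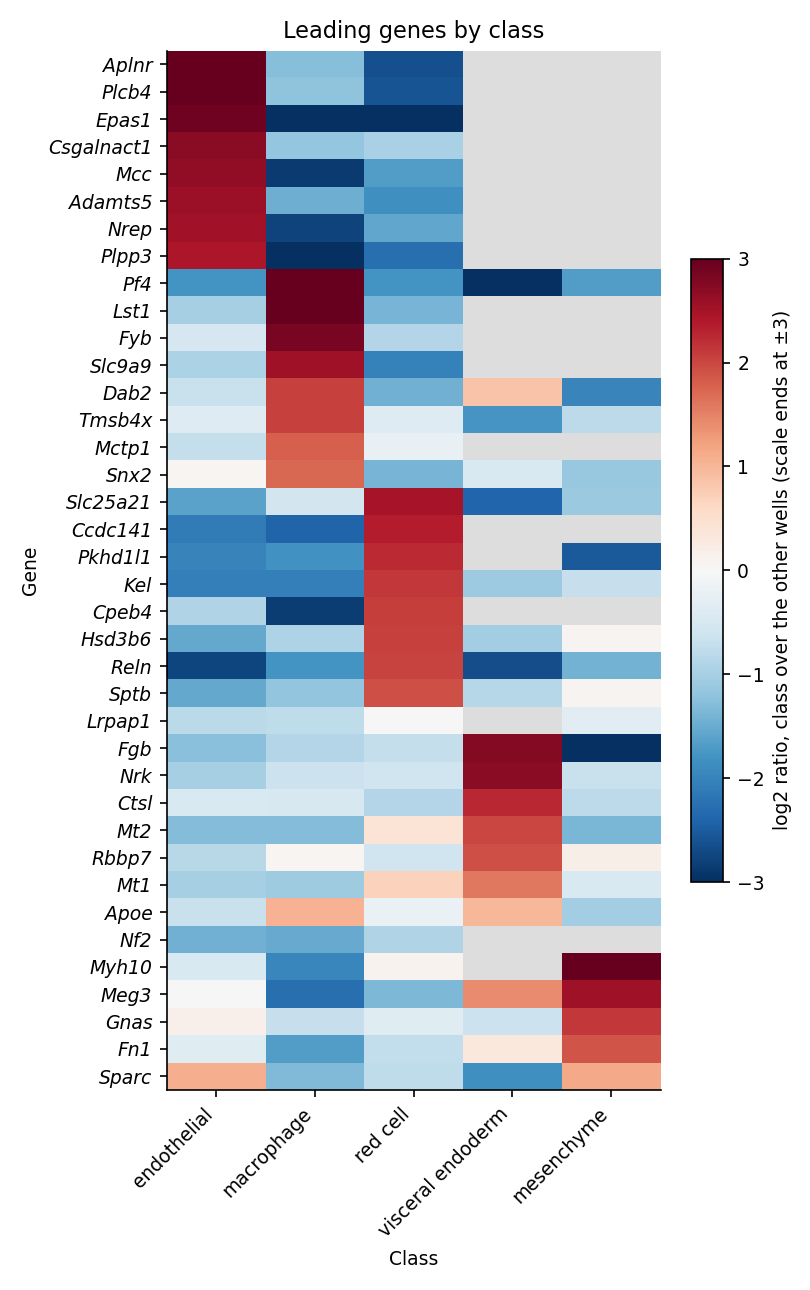
log2 ratio of each class over the other wells of the pool (columns) for up to 8 leading genes per class outside the class marker lists (rows); grey cells were not measured, and the colour scale ends at 3. Genes of each block were chosen for a high ratio in their own class, so that ratio is not a result. Lrpap1 and Nf2 were not measured in theirs. Apoe is 2-fold higher in both macrophage and visceral endoderm wells, and Meg3 in both mesenchyme and visceral endoderm wells.

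Genes that went together across the 357 wells were sought for markers of the pool and classes and for Pf4. The groups below follow from that choice. Correlations are Pearson's r of log2-scaled counts per 2000, over 2291 genes counted in at least 10% of wells; all points share 1 library and differ in depth, so they are given as a description. Stab2 had 34 partners at r of 0.3 or more, led by Plekhg1 and Flt1 (both 0.44), Ldb2 and Prkce (both 0.40) and Kdr (0.39). Several of these held among the 112 endothelial wells alone (Prkce 0.49, Flt1 0.43, Plekhg1 0.42). Lyve1 had Stab2 as its only partner (0.31, and 0.32 in endothelial wells), and Cdh5 had none. Hsd3b6 had 7 partners, Fth1 (0.39), St6galnac3 (0.35), Prdx2 (0.34), Bpgm and Gpx1 (both 0.33), Ccdc141 (0.31) and Alas2 (0.30), while its r with Stab2 was -0.14. In endothelial wells alone its r was 0.06 with Alas2 and -0.02 with St6galnac3. Pf4 went with Fcer1g (0.38), Tyrobp (0.37) and Dab2 (0.31), Afp with Apoa1 (0.42), Ttr (0.40) and Mt2 (0.35), and Slc4a1, the band 3 anion exchanger, with St6galnac3 (0.46). In endothelial wells alone r was 0.21 for Pf4 and Fcer1g, -0.09 for Pf4 and Tyrobp, 0.08 for Pf4 and Dab2, and 0.17 for Slc4a1 and St6galnac3, all below their r over the pool. The median r between markers of a list was 0.18 for endothelial, 0.21 for macrophage, 0.12 for red cell, 0.21 for visceral endoderm and 0.33 for mesenchyme genes, and the medians between lists ran from -0.08 to 0.00. After thinning, the medians within lists were 0.09 for endothelial, 0.13 for macrophage, 0.11 for red cell, 0.15 for visceral endoderm and 0.28 for mesenchyme genes. In endothelial wells alone they were 0.08, -0.05, 0.05, 0.12 and -0.03 in the same order. Leiden clustering of the wells gave 6 clusters, of which the markers named 3 (visceral endoderm, 65 wells; macrophage, 48; mesenchyme, 12). The first of these held all 8 visceral endoderm wells by the marker rule, with 15 endothelial, 10 mixed and 29 unclassed wells, and the second held 25 of the 30 macrophage wells, with 10 endothelial wells. The unnamed cluster of 139 wells held 54 of the 55 red cell wells, and the unnamed cluster of 77 wells held 69 of the 112 endothelial wells, led by Adamts5 and Fabp4.

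Endothelial wells of the yolk sac differed from those of the AGM pool on the same chip in their scavenger receptors. Stab2 had 2393 CPM in 112 yolk sac endothelial wells and 109 CPM in 99 AGM endothelial wells (log2 4.46, 3.91 to 5.07), and Lyve1 845 and 28.2 CPM (4.91, 3.84 to 6.24). Of 13 measured genes of the scavenger list, 9 were at least 2-fold higher and 1 lower (median 2.49, against -0.04 over 3965 genes, of which 8.35% were 2-fold higher and 9.16% lower). Mrc1, the mannose receptor and a marker of the macrophage list, had 682 against 129 CPM (2.40), and Maf 476 against 84.5 CPM (2.49). The wells without a cell had 304 CPM of Mrc1 on 4 counts (82.7 to 777). That interval holds both Mrc1 values, so they are not read as expression. No gene of the endothelial marker list differed by 2-fold (0 of 12 measured in either direction), though these markers had chosen the wells of both pools. All 10 measured visceral endoderm markers were also at least 2-fold higher in the yolk sac wells (median 4.36), and the neutrophil genes S100a8 (56.8 against 1042 CPM) and Mpo (14.2 against 217 CPM) were lower. RNA that the wells of a pool share thus moved with this comparison, and its part in the scavenger values was not tested. Over whole pools, 8 of 14 measured genes of the list were at least 2-fold higher than in the AGM positive pool and 1 lower, where 6.64% of all genes were higher and 6.89% lower.

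Set against the 245 endothelial wells of the E9.5 yolk sac pool, the E11.5 endothelial wells had more Stab2, 2393 against 1243 CPM (0.94, 0.80 to 1.08), while Lyve1 had 845 against 1196 CPM (-0.50, -0.71 to -0.30). Both depend on the total. With ribosomal RNA rows left out, the median over all genes was 0.05 in place of -0.30, the Stab2 ratio was 1.31, past 2-fold, the Lyve1 ratio was -0.14 (-0.35 to 0.07), and 789 genes in place of 418 were 2-fold higher. Ehd3 (1.68, 1.20 to 2.16) and Dab2 (1.03) were at least 2-fold higher, 2 of 13 measured genes of the list, where 6.17% of 6772 genes were higher and 24.9% lower, and 5 of 13 were higher without ribosomal RNA. Of 12 measured DNA replication genes, 7 were at least 2-fold lower (median -1.09, against -0.30 over all genes), Mcm5, a subunit of the replicative helicase, at 42.6 against 150 CPM (-1.82). Without ribosomal RNA 3 of the 12 were lower by 2-fold (median -0.72, against 0.05 over all genes). The shares of all genes higher or lower by 2-fold are not given for that total. The 3 of 12 and the 5 of 13 are therefore not read against such a share. Hsd3b6 had 344 against 15.7 CPM (4.45), and the 10 measured visceral endoderm markers were all at least 2-fold higher (median 5.66), so RNA shared by wells of the E11.5 chip moved with this comparison. Its part in the single values was not tested. Over whole pools, 2 of 15 measured genes of the scavenger list were higher (Dab2 and Msr1) and 2 lower (Lyve1 and Scarf1), where 7.69% of all genes were higher and 22.3% lower.

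Set against the yolk sac negative pool of the same chip, the positive pool was at least 2-fold higher in all 10 measured endothelial markers (median log2 4.35), all 12 measured macrophage markers (median 3.09) and all 11 measured visceral endoderm markers (median 1.38), where 10.3% of all genes were higher and 12.6% lower. It was at least 2-fold lower in all 8 measured mesenchyme markers (median -3.44) and in 7 of 11 handling stress genes, such as Fos and Egr1. None of 13 measured red cell markers differed by 2-fold (median 0.19). Red cell wells, cut at each pool's own threshold, were 15.4% of the positive and 18.7% of the negative pool. Visceral endoderm wells, cut likewise, were 2.24% of the positive and 2.90% of the negative pool. Of the 357 positive wells, 355 held 3 or more visceral endoderm markers. The part of RNA shared by the wells in the higher visceral endoderm values was not tested. Hsd3b6 had 767 CPM in the positive and 567 CPM in the negative pool (log2 0.44, 0.27 to 0.60).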

How the data were processed

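Single sorted cells were profiled on 2 ICELL8 chips. Raw counts per gene and well were deposited by the authors; the submitters' processing notes name FastQC, cutadapt, STAR and the build mm10 (GRCm38), while tool versions, how genes were counted and whether reads or molecules were counted are not given in the sources used here. Wells were assigned by the deposited table of pools. Of 4232 rows given as Ensembl IDs on the E11.5 chip, 4169 matched a symbol. Wells with 500 or more genes were kept. Counts were summed per class and divided by all counts outside 12 haemoglobin rows; log2 ratios have exact conditional binomial intervals, levels exact Poisson and shares exact Clopper-Pearson intervals, and a set with 0 counts was given 3. Named genes were the 20 with the largest ratio among those with at least 30 counts and counts in 20% of the class's wells, without haemoglobin, mitochondrial, ribosomal protein, Gm and Rik genes, beside the members of the fixed lists and partners at r of 0.3 or more. The members, lists and comparisons were chosen with earlier results of these data known. The calculation of ratios was checked on simulated counts. Python 3.11.15, scipy 1.17.1 and scanpy 1.11.5 were used. If reads were counted, copies of 1 molecule are not independent, so intervals and floors cover counting error only. The chips share 473 well barcodes, which are chip positions. Some genes are not reported here.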

Additional observations from a re-analysis of the deposited data

How the results depend on the processing

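No paired analysis was possible because each pool is a single suspension. Class sizes depended most on the rule. With at least 2 markers there were 35 red cell, 88 mixed and 57 unclassed wells, and with at least 4 markers 13 visceral endoderm, 12 mixed and 145 unclassed. With no share condition 310 wells were mixed, 45 visceral endoderm, 1 endothelial, 1 macrophage and 0 red cell, mesenchyme or unclassed. Among wells with at least 1000 genes there were 45 endothelial, 15 macrophage, 4 red cell, 7 mesenchyme, 18 mixed and 7 unclassed. Leiden clusters named by markers held 48 wells for macrophages, 25 of them of that class, and 65 for visceral endoderm, 8 of them of that class, and none was named endothelial or red cell. Genes at least 2-fold higher numbered 1101 in endothelial, 321 in macrophage and 74 in red cell wells with haemoglobin in the total, where the Hsd3b6 ratio in red cell wells was 1.49. With ribosomal RNA rows left out of the total, a choice made after seeing the data, they numbered 1178 for the pool and 789 for endothelial wells against E9.5. The Stab2 split thinned to 1000 counts, also chosen after seeing the data, gave 91. Pf4 in macrophage wells was 3.09 with equal weight per well. Stab2 against E9.5 was 0.78 with haemoglobin in the total and 1.31 without ribosomal RNA, and Lyve1 was -0.67 and -0.14 (-0.35 to 0.07). Haemoglobin in the total shifted the median of all genes by 0.30 in endothelial, 0.32 in macrophage, -0.62 in red cell and 0.13 in visceral endoderm wells, by -0.21 for the pool and -0.14 for endothelial wells against AGM, and by -0.35 and -0.17 against E9.5. Ribosomal RNA out of the total shifted it by 0.12 for the pool against the negative pool, and by 0.40 for the pool and 0.36 for endothelial wells against E9.5. The r of Afp and Ttr was 0.20 in endothelial wells, where 8 of 11 other pairs also moved. The cause of these shifts was not tested. Leaving out wells over 20% mitochondrial counts moved none of these results. Among single genes, 18 of 101 ratios moved with haemoglobin in the total and 9 of 101 with equal weight per well, and none of those called changed sign. Depth (a median of 1786 counts outside haemoglobin) limits genes under about 20 counts.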
